A study of Mus musculus with 6 samples.

Results

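The genes described here are the 7 insulin-like growth factor (IGF) binding proteins, Igfbp1 to Igfbp7, and Igf1r, the receptor for IGF1. They were taken by gene name from the count table, where each name occurs once, and make up 8 of its 54532 genes. All 8 were in the set of 13706 genes with enough counts to test. The libraries are 6 liver samples from mice aged 5 weeks. The 3 labelled Ctrl are controls, and the 3 labelled Fam210aHKO carry a knockout of Fam210a, a gene for a mitochondrial inner membrane protein, restricted to hepatocytes. The library names mark the controls as WT. The sources used here do not give the alleles of the controls, the Cre driver, the deleted exons, the strain or the feeding state at collection. RNA came from whole liver, so transcripts of cells other than hepatocytes are included.

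IGF1 is secreted by hepatocytes under growth hormone control, and in blood nearly all of it is bound. IGFBP3, together with IGF1 and the acid-labile subunit encoded by Igfals, forms the long-lived ternary complex, while IGFBP1 is a small, rapidly turning over carrier whose liver gene is raised by fasting and stress and repressed by insulin. Binding proteins compete with the receptor for ligand, and proteases that cut them set ligand free. Adult hepatocytes are known to have little IGF1 receptor.

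The genes lie in mm10 as follows, with coordinates and strand from the deposited table, which for these 8 are the same as in GENCODE M21. Igfbp1 (ENSMUSG00000020429) spans chr11:7197782-7202546 on the plus strand with 4 exons, and Igfbp3 (ENSMUSG00000020427) spans chr11:7206086-7213923 on the minus strand with 5. They lie tail to tail, 3539 bp apart, with 0 annotated genes between them. Igfbp2 (ENSMUSG00000039323, chr1:72824503-72852474, plus strand) and Igfbp5 (ENSMUSG00000026185, chr1:72857932-72874884, minus strand) lie tail to tail as well, 5457 bp apart, again with 0 annotated genes between them. Igfbp4 (ENSMUSG00000017493) is at chr11:99041244-99054392, Igfbp6 (ENSMUSG00000023046) at chr15:102144362-102149511, Igfbp7 (ENSMUSG00000036256) at chr5:77349240-77408041 and Igf1r (ENSMUSG00000005533), with up to 21 exons, at chr7:67952827-68233668. The count is per gene and covers exons and UTRs alike. Igfbp7 overlaps Polr2b, on the opposite strand, by 85 bp, and the sources used here do not give the strand setting of the counting.

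The promoter windows of the 3 genes called below (Igfbp1, Igfbp5 and Igfbp6) and of Igfbp3, the neighbour of Igfbp1 that was not called, are printed to show how different the sequences in front of these genes are. Each runs from 250 bases before to 50 after the RefSeq start on GRCm38.p6, the build also called mm10, read 5′ to 3′ on the gene's strand. Capitals mark matches, on either strand, to any of 6 short motifs: CAAAACAA (core of the insulin response element), the site of HNF1, TGATGNAA (a composite of C/EBP and ATF factors), ACGTG (core of the hypoxia response element), TATAAA (the box near the start of many promoters) and CACGTG (E-box, which contains ACGTG). The motifs were chosen after these windows had been read, so the matches support nothing.
Igfbp1 (chr11:7197537-7197836, plus strand): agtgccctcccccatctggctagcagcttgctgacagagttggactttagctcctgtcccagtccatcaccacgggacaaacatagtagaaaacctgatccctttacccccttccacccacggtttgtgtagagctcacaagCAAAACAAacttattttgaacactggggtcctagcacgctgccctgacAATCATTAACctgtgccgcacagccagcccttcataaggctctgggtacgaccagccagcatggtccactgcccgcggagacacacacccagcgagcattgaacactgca
Igfbp3 (chr11:7213874-7214173, minus strand): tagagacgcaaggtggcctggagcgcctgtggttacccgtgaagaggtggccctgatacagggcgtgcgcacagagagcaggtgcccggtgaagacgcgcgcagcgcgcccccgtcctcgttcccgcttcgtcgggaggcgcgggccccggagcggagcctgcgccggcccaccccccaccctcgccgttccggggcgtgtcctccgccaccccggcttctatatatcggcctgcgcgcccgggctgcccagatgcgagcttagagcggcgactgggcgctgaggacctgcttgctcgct
Igfbp5 (chr1:72874816-72875115, minus strand): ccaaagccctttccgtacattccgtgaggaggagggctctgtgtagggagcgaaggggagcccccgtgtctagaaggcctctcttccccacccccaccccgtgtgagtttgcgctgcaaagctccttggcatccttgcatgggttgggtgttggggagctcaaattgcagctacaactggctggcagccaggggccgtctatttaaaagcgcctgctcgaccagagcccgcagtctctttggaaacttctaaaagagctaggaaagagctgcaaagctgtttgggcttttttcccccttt
Igfbp6 (chr15:102143936-102144235, plus strand): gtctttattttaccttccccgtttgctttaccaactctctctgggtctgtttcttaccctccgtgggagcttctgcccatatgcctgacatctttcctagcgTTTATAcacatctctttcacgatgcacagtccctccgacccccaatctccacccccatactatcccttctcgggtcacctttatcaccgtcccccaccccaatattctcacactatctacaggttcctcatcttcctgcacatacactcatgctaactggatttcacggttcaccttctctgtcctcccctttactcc
In the Igfbp1 window the insulin response core starts at position -108 from the transcription start and the HNF1 match, AATCATTAAC as read on this strand, starts at -60. Of 32851 windows of 300 bases in the RefSeq table, 2.51% hold the insulin response core and 0.399% the HNF1 site. Of the 6 motifs, 0 are in the Igfbp3 and Igfbp5 windows, and the Igfbp6 window holds TATAAA at -148 on the opposite strand. It is in 13.6% of all windows. The Igfbp6 window ends at 102144235, before the GENCODE start of the gene at 102144362, so -148 counts from the RefSeq start alone. The Igf1r window likewise ends before its GENCODE start. TGATGNAA, found in 3.97% of windows, was in 0 of the first-listed windows of the 8 genes, and ACGTG, found in 19.6%, was in those of Igfbp2 and Igfbp7. The E-box, found in 7.15%, was in that of Igfbp2. These matches describe letters in the window and say nothing about binding. The base composition of the windows ranged from 49.7% G and C for Igfbp6 to 76.0% for Igf1r, against a median of 52.7% over all windows.

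The libraries held between 12.5 and 19.7 M counts (M, 1000000). Values are given as CPM, counts per 1000000 of the tested counts, scaled by TMM factors. A count of 3 came to between 0.132 and 0.261 CPM. Fam210a was 119, 136 and 162 CPM in Ctrl and 31.7, 28.6 and 44.2 CPM in Fam210aHKO, so the groups did not overlap, and the fitted level was 25.1% of control. The genotype entry of Fam210aHKO replicates 2 and 3 names Fam211a and Fam212a, and the titles were used to form the groups. Fam210aHKO replicate 1 stood apart for Lars2 (3080 CPM, elsewhere 23.3 to 29.2 CPM), and values without it are given where a call on a member changes. Fam210aHKO replicate 3 stood apart for haemoglobin genes (Hba-a1 112 CPM, elsewhere 7.93 to 17.7 CPM) and for Eif2s3y (21.4 CPM, elsewhere 49.1 to 54.3 CPM), and leaving it out changed the call on 0 of the 8 genes. Whether every library comes from its own mouse is not stated, so the p-values cover the spread among these 6 libraries, which may be technical.

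Of the 8 genes, 1 rose in Fam210aHKO (Igfbp1), 2 fell (Igfbp5 and Igfbp6) and 5 did not pass (edgeR quasi-likelihood test, adjusted p under 0.05). Among all tested genes 14.0% were called higher and 13.5% lower, 27.5% in all, so 3 of 8 is near the share of the transcriptome. The median log2 fold change of the 8 was -0.06 against 0.02 over all tested genes. CPM of the groups did not overlap for 5 of the 8 genes (3 higher and 2 lower), where 42.7% of all tested genes did not overlap (22.0% higher and 20.7% lower). When total counts alone set the scale (library totals), the median over all tested genes was 0.47, and 4 of the 8 were called higher and 1 lower, against 42.7% and 6.33% of all tested genes. All later changes are measured against the median gene, as TMM scaling sets it. Counts of called genes in the lists below are to be read beside the shares of all tested genes called here.

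**Figure D1:**
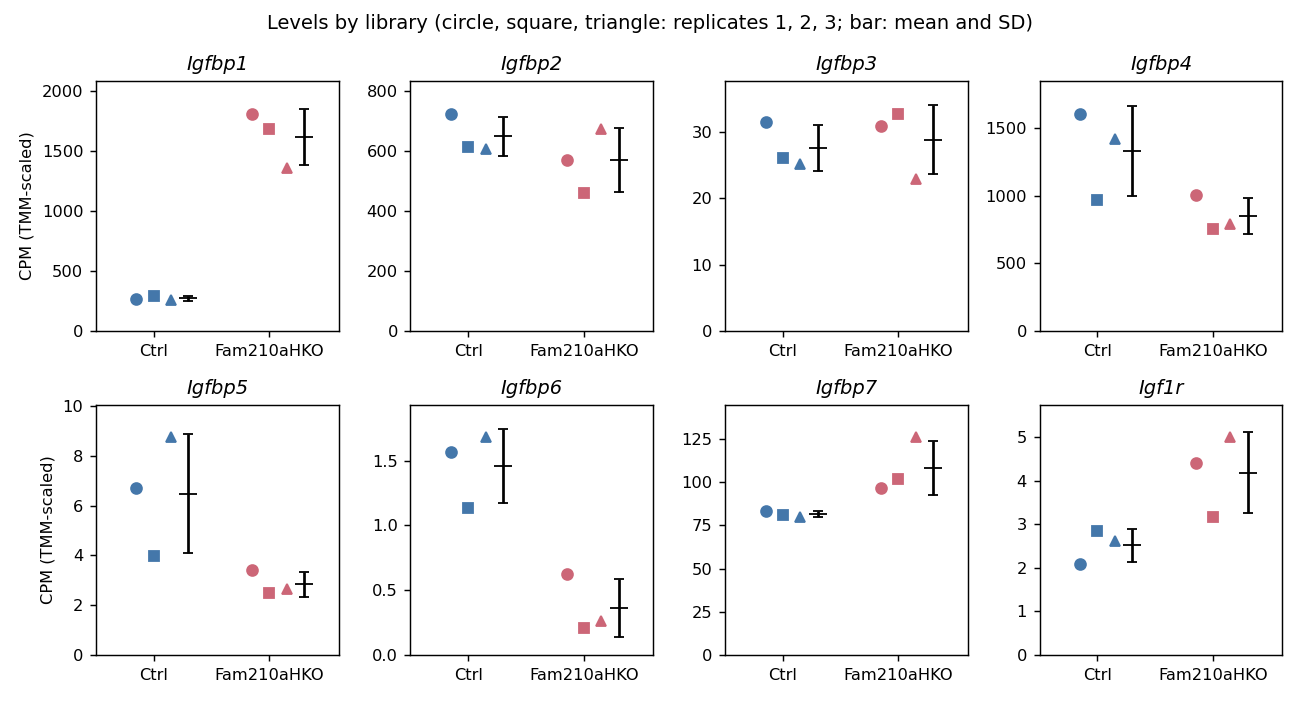
Level of each of the 8 genes in every library, in TMM-scaled CPM on axes that start at 0, with the mean and SD of each group (n = 3). Igfbp1 was between 256 and 290 CPM in Ctrl and between 1358 and 1808 CPM in Fam210aHKO, while the groups overlap for Igfbp2, Igfbp3 and Igfbp4.

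Igfbp1 was the 1 member that rose. Its log2 fold change was larger in size than that of the other members, except without Fam210aHKO replicate 1, where Igfbp6 was at -2.59 and Igfbp1 at 2.47. Its level was 271, 290 and 256 CPM in the Ctrl libraries, taken in replicate order, and 1808, 1682 and 1358 CPM in the Fam210aHKO libraries. Each knockout library was several times higher than each control, and the controls lay within a narrow range. The counts behind these values were 3115 to 3806 in Ctrl and 24450 to 37789 in Fam210aHKO, so counting error is small beside the spread between libraries. The fold change was 5.93 (log2 fold change 2.57, SE 0.194, adjusted p = 9.94e-06, edgeR quasi-likelihood test). By mean CPM, Igfbp1 stood at rank 492 of the tested genes in Ctrl and at rank 48 in Fam210aHKO, and 262 tested genes had a higher fold change. Its log2 fold change stayed between 2.47 and 3.03 over 16 alternative settings, with adjusted p of at most 0.000249.

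The ratio of Igfbp1 to other members within a library does not depend on how libraries are scaled. The pairs given here and below were chosen after values had been seen, and no test was made on them. Counts per kilobase of Igfbp1 over those of its tail-to-tail neighbour Igfbp3 were 17.7, 22.9 and 20.9 in Ctrl and 120, 105 and 122 in Fam210aHKO. Over Igfbp2 they were 0.452, 0.571 and 0.510 in Ctrl and 3.83, 4.41 and 2.44 in Fam210aHKO. Igfbp2 was thus the more abundant transcript per length in every control library and Igfbp1 in every knockout library. Of 10 markers of hepatocytes, the main source of Igfbp1 in liver, 0 were called higher and 6 lower, with 8 lower under the replicate block and 1 higher and 5 lower under library totals. Their summed level was 166723 to 247715 CPM in Ctrl and 98896 to 123145 CPM in Fam210aHKO. Most of that sum is albumin, Alb, which was not called (adjusted p = 0.449), and Ahsg, fetuin A, was above all controls in every knockout library without being called (adjusted p = 0.364). The part of this cell type in the rise of Igfbp1 was not tested. In whole tissue, fewer cells of a type and less RNA per cell cannot be told apart.

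Igfbp2 and Igfbp4, abundant carriers of liver, did not pass. Igfbp2, a binding protein high in fetal liver and in fasting, was 725, 616 and 608 CPM in Ctrl and 572, 462 and 676 CPM in Fam210aHKO. The ranges overlap, and Fam210aHKO replicate 3 lies among the controls. The log2 fold change was -0.19 (SE 0.185, adjusted p = 0.488) and turned to 0.26 with library totals (adjusted p = 0.287), so no direction was found. Igfbp4, which is cut by the metalloprotease PAPP-A and otherwise restrains IGF action, was 1604, 964 and 1420 CPM in Ctrl and 1002, 756 and 794 CPM in Fam210aHKO. Ctrl replicate 2 fell just below Fam210aHKO replicate 1, so the groups overlap. The log2 fold change of Igfbp4 was -0.64 (SE 0.228, adjusted p = 0.0573). It was called lower with the replicate number as a block (adjusted p = 0.0107) and with DESeq2 (0.00837), and also without Ctrl replicate 2 (0.0164) or Fam210aHKO replicate 1 (0.0476), whereas with library totals it was -0.20 (0.512).

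Igfbp3, the main carrier of IGF1 in adult blood, showed little difference. It was 31.5, 26.1 and 25.1 CPM in Ctrl and 30.9, 32.7 and 22.9 CPM in Fam210aHKO, and the knockout range encloses the control range. The log2 fold change was 0.07 (SE 0.176, adjusted p = 0.818). With library totals the log2 fold change was 0.52 and Igfbp3 was called (adjusted p = 0.0413), which is close to the shift of all genes under that scaling. In rat liver Igfbp3 is known to come from cells other than hepatocytes, whereas its partners Igf1 and Igfals come from hepatocytes. The 12 markers of sinusoidal endothelium summed to 544 to 697 CPM in Ctrl and 364 to 596 CPM in Fam210aHKO, with 2 called lower. That count was 6 under the replicate block, 0 under library totals, 7 without Fam210aHKO replicate 3, 1 without Ctrl replicate 1 and 0 without any of the other 4 libraries. The 10 markers of Kupffer cells and macrophages summed to 577 to 770 and 493 to 904 CPM, with 1 called higher, or 6 under library totals. The part of these cells in the level of Igfbp3 was not tested.

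Igfbp7, a relative with low affinity for IGFs that endothelial cells secrete, was 83.5, 81.1 and 79.7 CPM in Ctrl and 96.7, 102 and 126 CPM in Fam210aHKO. All knockout libraries were above all controls, by a small margin. The log2 fold change was 0.41 (SE 0.144, adjusted p = 0.0563), which did not pass. It passed as higher under the replicate block (0.40, adjusted p = 0.0272), where 17.8% of all tested genes did, and under library totals (0.86, adjusted p = 0.00123). Polr2b, which it overlaps by 85 bp on the other strand, did not pass either (log2 fold change -0.20, adjusted p = 0.464). The 12 endothelial markers had 0 called higher under these 3 fits, and 2, 6 and 0 called lower with group alone, the block and library totals, and their part in the level of Igfbp7 was not tested.

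**Figure D2:**
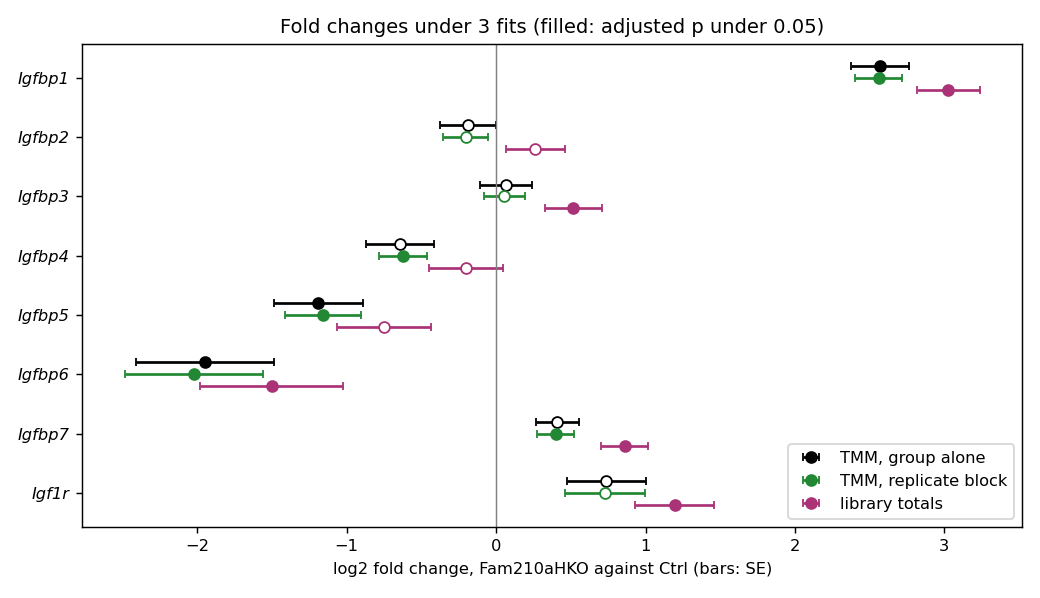
Log2 fold change of each gene with its SE under TMM with group alone, TMM with the replicate number as a block, and library totals; filled points have an adjusted p under 0.05. Igfbp1 and Igfbp6 are filled in all 3 fits, Igfbp5 in the 2 with TMM, and Igfbp2 lies on opposite sides of 0 under the 2 scalings.

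Igfbp5 and Igfbp6 fell, both from low levels. Igfbp5, a heparin-binding carrier made largely by mesenchymal cells, was 6.70, 3.98 and 8.74 CPM in Ctrl and 3.40, 2.48 and 2.63 CPM in Fam210aHKO. The groups did not overlap, although Ctrl replicate 2 lay close to Fam210aHKO replicate 1. The fitted level was 43.9% of control (log2 fold change -1.19, SE 0.297, adjusted p = 0.0124). The call was lost without Ctrl replicate 3 (-0.93, adjusted p = 0.0654) and with library totals (-0.75, adjusted p = 0.0658). Its neighbour Igfbp2 was not called, and the ratio of Igfbp2 to Igfbp5 in counts per kilobase was 352, 503 and 226 in Ctrl and 548, 607 and 835 in Fam210aHKO.

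Igfbp6, which prefers IGF2 over IGF1, rested on few reads. Its counts were 18, 14 and 25 in Ctrl and 13, 3 and 6 in Fam210aHKO, or 1.57, 1.14 and 1.68 CPM against 0.622, 0.206 and 0.263 CPM. The groups did not overlap, and the fitted level was 25.9% of control (log2 fold change -1.95, SE 0.459, adjusted p = 0.00916). Igfbp6 reached the filter's level of 0.618 CPM in all 3 Ctrl libraries and in 1 of 3 Fam210aHKO libraries, so it was tested because of its level in Ctrl. The other 7 genes reached it in all 6 libraries. Igfbp6 was called under every alternative that tested it, with adjusted p between 0.00233 and 0.0421, and the filter of CPM above 1 in 3 libraries left it out.

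Markers of mesenchymal and mesothelial cells stood beside these 2 genes as follows. Of 8 portal fibroblast and mesothelial markers 7 were tested. The mesothelial genes Msln (log2 fold change -2.06, adjusted p = 0.0106) and Upk3b (-3.23, adjusted p = 0.00454) and the fibroblast gene Gas1 (-2.87, adjusted p = 0.000196) fell, and Eln, elastin, rose (1.34, adjusted p = 0.0103), a call lost without Ctrl replicate 3. Msln and Upk3b reached the filter's level in 3 Ctrl and 0 Fam210aHKO libraries, so like Igfbp6 they were tested because of their level in Ctrl, on 45 and 46 counts there against 16 and 7. The summed level of that list was 27.2 to 43.0 CPM in Ctrl and 26.6 to 48.2 CPM in Fam210aHKO. Most of that sum is Eln and Gas1, which moved in opposite directions, so it hides both changes. Eln went from 9.91 ± 4.37 CPM in Ctrl to 25.1 ± 9.68 in Fam210aHKO, and Gas1 from 14.5 ± 2.27 to 1.93 ± 1.02. Stellate cell markers summed to 420 to 493 CPM in Ctrl and 510 to 656 CPM in Fam210aHKO, with 1 of 10 called higher (7 under library totals, 2 under the replicate block), and myofibroblast markers to 64.5 to 90.7 and 101 to 220 CPM, where the 220 is Fam210aHKO replicate 3. Of the 5 myofibroblast markers tested 2 were called higher, with 4 under library totals and 3 under the replicate block or without Fam210aHKO replicate 1. That count was 1 without Fam210aHKO replicate 3 or Ctrl replicate 1, and 0 without Ctrl replicate 2 or Ctrl replicate 3. It was also 0 with limma on log2(FPKM + 1) and on log2(FPKM + 0.1), with all libraries kept. Cholangiocyte markers summed to 54.2 to 74.0 and 154 to 293 CPM, with 2 of 5 tested called higher. Of the same 5, 4 were called under library totals and 3 under the replicate block. Where 7 were tested, 5 were called higher without Fam210aHKO replicate 2, 4 with no filter, 3 without Ctrl replicate 2 and 2 without Ctrl replicate 1 or Ctrl replicate 3. Of the markers in each of these lists 0 were at 0 counts in every library. The part of these cells in the fall of Igfbp5 and Igfbp6 was not tested.

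Divided by the gene length in the table, the levels of the binding proteins can be set beside each other. The order depends on that length. In plain CPM Igfbp4 (1330 ± 330) was above Igfbp2 (650 ± 65.7) in Ctrl. In Ctrl the order, in CPM per kilobase, was Igfbp2 (352 ± 35.6, mean ± SD, n = 3), Igfbp4 (301 ± 74.6), Igfbp1 (179 ± 11.4), Igfbp7 (67.4 ± 1.57), Igfbp3 (8.80 ± 1.09), Igfbp6 (1.31 ± 0.258) and Igfbp5 (1.08 ± 0.398). The ranges of Igfbp2 and Igfbp4 overlap, as do those of Igfbp6 and Igfbp5, and the other neighbours do not. In Fam210aHKO the order was Igfbp1 (1060 ± 152), Igfbp2 (309 ± 57.7), Igfbp4 (193 ± 29.9), Igfbp7 (89.5 ± 12.9), Igfbp3 (9.22 ± 1.67), Igfbp5 (0.472 ± 0.0820) and Igfbp6 (0.327 ± 0.203), where only the last 2 overlap. Igfbp1 thus moved from the third place to the top, ahead of genes that were not called. Their summed level was 910 ± 98.9 CPM per kilobase in Ctrl and 1660 ± 137 in Fam210aHKO.

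The make-up of this pool changed accordingly. Igfbp1 made up 17.5%, 23.2% and 18.7% of the summed binding protein mRNA per length in Ctrl and 65.4%, 68.1% and 57.5% in Fam210aHKO. Igfbp2 went from 38.7% ± 1.96 to 18.7% ± 4.32 and Igfbp4 from 32.8% ± 5.31 to 11.6% ± 0.972 (mean ± SD, n = 3). Igfbp7 made up 7.45% ± 0.699 and 5.45% ± 1.18, and Igfbp3 0.968% ± 0.0629 and 0.554% ± 0.0871. As shares sum to a fixed total, the increase in Igfbp1 lowers the others, and no test was made on them. The shares depend on the gene lengths used. They describe mRNA in liver and not protein in blood.

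**Figure D3:**
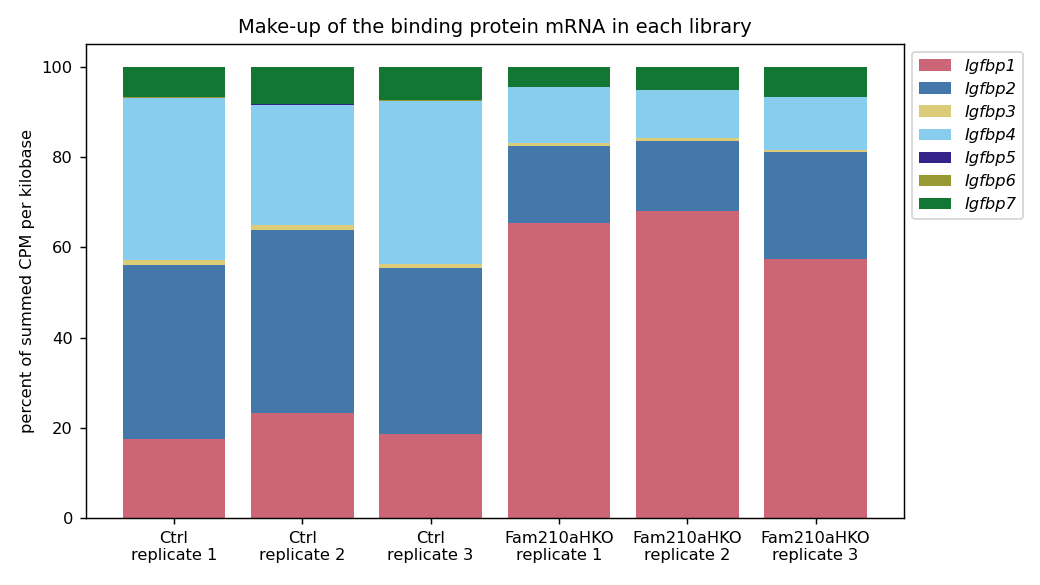
Share of each binding protein gene in the summed CPM per kilobase of the 7 genes, in percent, with 1 bar per library. Igfbp1 takes 17.5% to 23.2% of each Ctrl bar and 57.5% to 68.1% of each Fam210aHKO bar, and Igfbp3, Igfbp5 and Igfbp6 are too thin to read.

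Igf1r, the receptor tyrosine kinase that IGF1 activates, was low in liver. Its counts were 24, 35 and 39 in Ctrl and 92, 46 and 114 in Fam210aHKO, which gave 2.09, 2.84 and 2.62 CPM and 4.40, 3.16 and 5.00 CPM. All knockout libraries were above all controls, with Fam210aHKO replicate 2 close to them. The log2 fold change was 0.74 (SE 0.264, adjusted p = 0.0599), which did not pass. It passed as higher under library totals (1.20, adjusted p = 0.00358) and without Fam210aHKO replicate 2 (0.90, adjusted p = 0.0465). Per length it stood below every binding protein in Ctrl (0.150 ± 0.0231 CPM per kilobase), and in Fam210aHKO (0.249 ± 0.0558) its range overlapped that of Igfbp6. In plain CPM Igf1r was above Igfbp6 in Ctrl (2.52 ± 0.388 against 1.46 ± 0.287).

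The related receptors differed from each other. Insr, the insulin receptor, fell from 183 ± 26.0 CPM in Ctrl to 117 ± 12.4 (log2 fold change -0.65, SE 0.155, adjusted p = 0.00953), a call that library totals ended (-0.20, adjusted p = 0.344). Igf2r, which carries IGF2 to lysosomes for breakdown, rose from 45.9 ± 8.32 CPM in Ctrl to 85.9 ± 8.33 (log2 fold change 0.91, SE 0.165, adjusted p = 0.0022). The ratio of Insr to Igf1r in counts per kilobase was 105, 68.7 and 98.4 in Ctrl and 30.5, 42.2 and 32.0 in Fam210aHKO, so the insulin receptor transcript exceeded that of the IGF1 receptor in every library and by less in the knockout. The ratio of Igf2r to Igf1r was 41.6, 23.2 and 36.3 in Ctrl and 33.9, 45.3 and 34.4 in Fam210aHKO, so here the groups overlap. Insrr, the third receptor of this list, had at most 5 counts in a library and was not tested.

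The ligand and the third partner of the ternary complex fell. Igf1 was 461, 893 and 651 CPM in Ctrl and 122, 162 and 216 CPM in Fam210aHKO (fold change 0.249, SE on the log2 scale 0.268, adjusted p = 0.000331). Igfals was 58.0, 36.8 and 71.7 CPM in Ctrl and 10.6, 14.5 and 11.5 CPM in Fam210aHKO (log2 fold change -2.19, SE 0.238, adjusted p = 9.1e-05). Igf2 had at most 1 count in a library, and Ins1 and Ins2 had 0, so the ligand of this liver that could be measured was Igf1. The ratio of Igf1 to Igfbp1 in counts per kilobase was 0.262, 0.473 and 0.392 in Ctrl and 0.0104, 0.0148 and 0.0244 in Fam210aHKO, a mean 22.7 times lower. The ratio of Igf1 to the 7 binding proteins together was 0.0459, 0.110 and 0.0735 in Ctrl and 0.00681, 0.0101 and 0.0141 in Fam210aHKO, a mean 7.41 times lower. The levels of both ratios, and the change of the ratio to the summed binding proteins, depend on the gene lengths used. In plain CPM Igf1 (668 ± 216) was above Igfbp1 (272 ± 17.3) in Ctrl. The ratio of Igfbp3 to Igfals was 0.366, 0.478 and 0.237 in Ctrl and 1.97, 1.52 and 1.34 in Fam210aHKO.

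**Figure D4:**
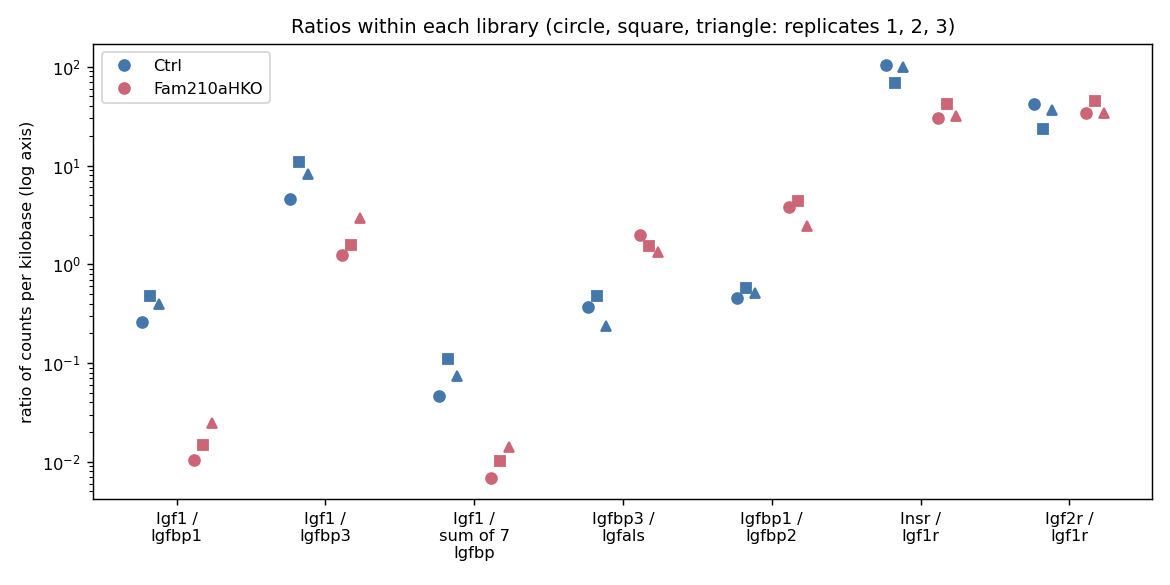
Ratios of counts per kilobase within each library on a log axis, which do not depend on library scaling; each point is a library. The groups overlap for Igf2r over Igf1r and not for the other 6 ratios shown, and Igf1 over Igfbp1 goes from between 0.262 and 0.473 in Ctrl to between 0.0104 and 0.0244 in Fam210aHKO.

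Of the growth hormone input to these genes, 2 of 6 tested genes fell, 0 rose and 4 did not pass. The 4 lay on both sides of 0. Their log2 fold changes were -0.93 for Cish (adjusted p = 0.127), 0.26 for Socs2 (0.724), 0.24 for Jak2 (0.277) and 0.01 for Stat5a (0.979). Ghr, the growth hormone receptor, fell from 408 ± 108 CPM in Ctrl to 151 ± 24.9 (log2 fold change -1.43, adjusted p = 0.000681). Stat5b, the factor through which it acts on Igf1 and Igfals, fell from 70.3 ± 13.9 CPM in Ctrl to 46.8 ± 5.81 (-0.58, adjusted p = 0.0278). The call on Stat5b was lost with library totals (-0.14, adjusted p = 0.56) and without any of Ctrl replicate 1, Ctrl replicate 3, Fam210aHKO replicate 1 or Fam210aHKO replicate 2 (adjusted p between 0.0675 and 0.102). The list still had 2 genes called lower without Fam210aHKO replicate 2.

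Proteases that cut binding proteins, with their inhibitors, changed in both directions. Of 15 listed genes 9 were tested, and 2 rose, 2 fell and 5 did not pass, with a median log2 fold change of 0.43. Adamts1, a secreted metalloprotease, rose from 17.4 ± 2.22 CPM in Ctrl to 37.8 ± 3.60 (log2 fold change 1.12, adjusted p = 0.000475). Ctsd, the lysosomal protease cathepsin D, rose from 196 ± 12.8 CPM in Ctrl to 264 ± 25.0 (0.43, adjusted p = 0.0472), and that call was lost without any single library (adjusted p between 0.0699 and 0.184). Plg, the precursor of plasmin, fell from 2332 ± 263 CPM in Ctrl to 891 ± 235 (-1.39, adjusted p = 0.00154). Adam9, a membrane protease, fell from 82.3 ± 9.93 CPM in Ctrl to 51.6 ± 7.75 (-0.67, adjusted p = 0.00872; with library totals -0.23 and 0.293). Pappa and Pappa2, the proteases of IGFBP4 and IGFBP5, had at most 15 and 3 counts in a library and were not tested. With library totals 5 of this list were called higher and 1 lower, and with the replicate block 3 higher and 2 lower, Mmp14, a membrane metalloprotease, being the one gained (adjusted p = 0.0335, with group alone 0.0678).

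Among relatives with an IGFBP-type domain 5 of 10 were tested and 1 rose. Ctgf, also named Ccn2, a matrix protein and target of the Hippo pathway, went from 12.2 ± 2.30 CPM in Ctrl to 24.2 ± 4.49 (log2 fold change 0.99, SE 0.199, adjusted p = 0.00372). Cyr61, Crim1, Kazald1 and Wisp1 did not pass, with log2 fold changes of 0.04, 0.12, 0.42 and 0.73. The list's median was 0.42.

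Downstream of the receptors, 1 of 17 tested signalling genes rose, 2 fell and 14 did not pass, with a median log2 fold change of 0.04. Of all tested genes 14.0% were called higher and 13.5% lower. Grb10, an adaptor that binds the insulin and IGF1 receptors and restrains them, rose from 4.98 ± 1.39 CPM in Ctrl to 25.5 ± 4.37 CPM in Fam210aHKO (log2 fold change 2.36, SE 0.228, adjusted p = 4.3e-05). Its relative Grb14 fell from 74.3 ± 7.52 CPM in Ctrl to 47.2 ± 5.59 (-0.66, adjusted p = 0.00747), and Pik3r1, the regulatory subunit of the lipid kinase PI3K, from 90.3 ± 8.49 CPM in Ctrl to 60.3 ± 5.79 (-0.58, adjusted p = 0.0111). Library totals ended both of the latter calls (adjusted p = 0.312 and 0.527), and Pik3r1 was not called without Fam210aHKO replicate 2 (0.0604). The receptor substrate Irs2 stood at 32.7 ± 12.9 and 55.9 ± 17.2 CPM (0.77, adjusted p = 0.0633) and Irs1 at 14.6 ± 2.32 and 10.7 ± 3.44 CPM (-0.45, adjusted p = 0.189). With the replicate block, under which 17.8% of all tested genes were higher and 18.0% lower, 3 genes of the list were higher and 4 lower. Irs2 (adjusted p = 0.00743) and Irs1 (0.041) were among them. With library totals 10 were higher and 0 lower, against 42.7% and 6.33% of all tested genes.

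Of 8 transcription factors known to act on Igfbp genes 2 rose, 1 fell and 5 did not pass. Atf4, the effector of the integrated stress response and a known activator of IGFBP1, rose from 64.8, 67.1 and 65.5 CPM in Ctrl to 149, 169 and 129 CPM in Fam210aHKO (log2 fold change 1.18, SE 0.145, adjusted p = 0.000192). Foxo1, through which insulin represses Igfbp1, was 46.1, 32.3 and 52.9 CPM in Ctrl and 33.0, 23.0 and 32.5 CPM in Fam210aHKO. Its groups overlap and it did not pass (-0.57, SE 0.207, adjusted p = 0.0636), although it was called lower with the replicate block (0.00471). Hif1a, of the hypoxia response, rose from 44.9 ± 2.59 CPM in Ctrl to 59.8 ± 3.67 (0.41, adjusted p = 0.0411), a call lost without any single library (adjusted p between 0.0537 and 0.16). Ppara, of fasting metabolism, fell from 160 ± 38.6 CPM in Ctrl to 78.3 ± 30.7 (-1.03, adjusted p = 0.012), and was not called without Ctrl replicate 3 (0.0515) or with library totals (0.0786). With the replicate block 3 factors were lower, Nr3c1, the glucocorticoid receptor, being the third (0.0276). Messenger RNA of a factor does not measure its activity.

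**Figure D5:**
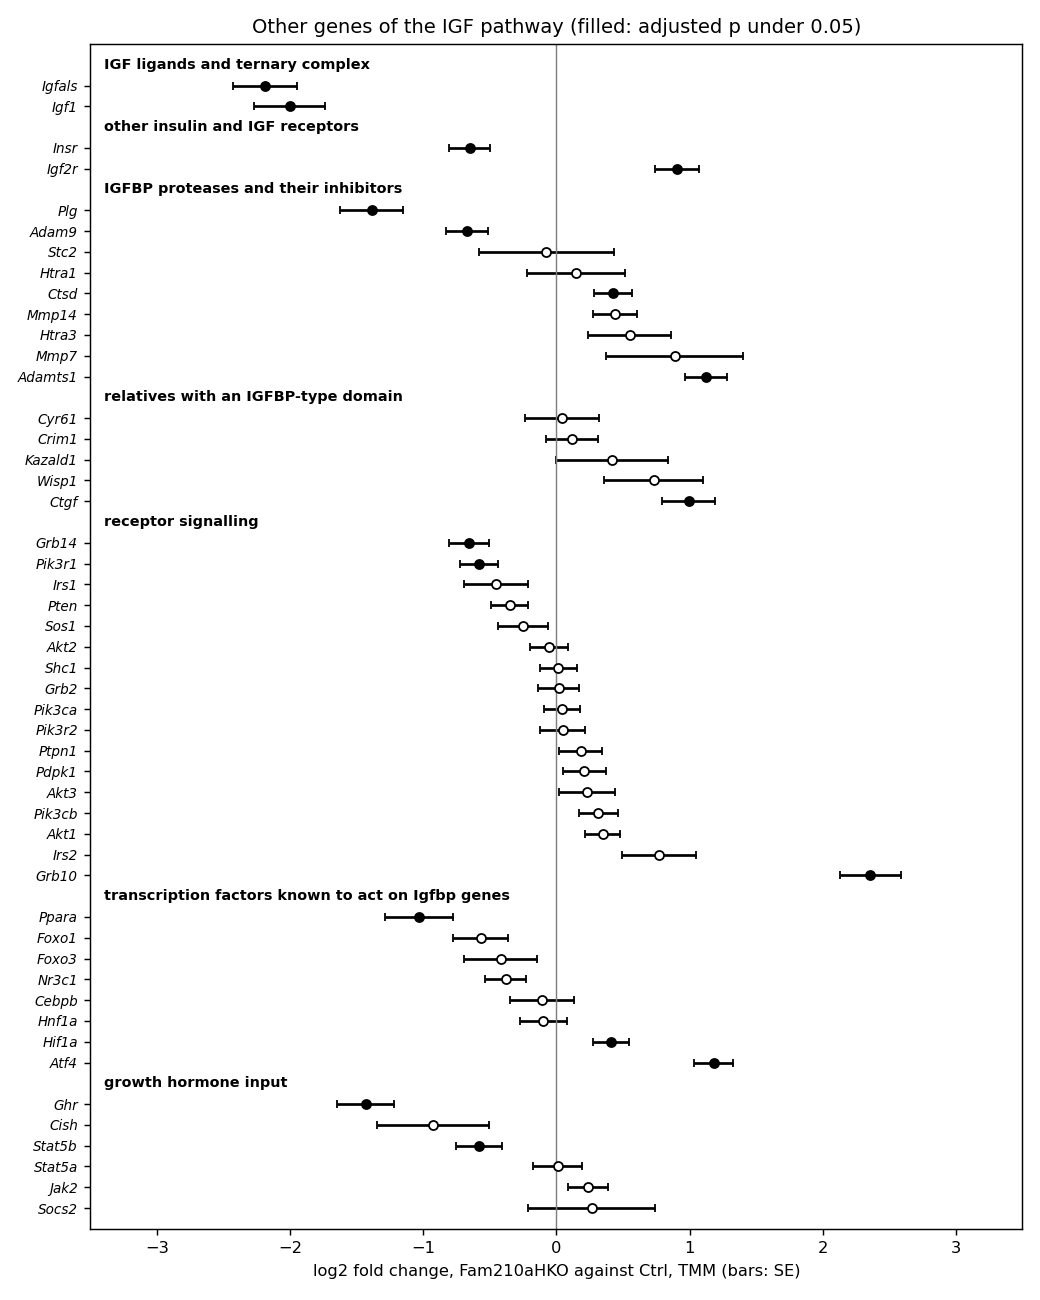
Log2 fold change with SE of the other tested genes of the IGF pathway, by list, under TMM scaling; filled points have an adjusted p under 0.05. Igfals lies at -2.19 and Grb10 at 2.36, and 14 of 17 signalling genes have open points.

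The genes whose profile over the 6 libraries lay nearest to that of Igfbp1 were Rragd, Plekhh1 and Ifrd1, with root mean square distances between centred log2 CPM of 0.108, 0.140 and 0.148 and log2 fold changes of 2.52, 2.57 and 2.55. For Igfbp5 they were AC135964.1, Tmem19 and Pnkd, at distances of 0.0944, 0.146 and 0.154, and for Igfbp6 Car5a, Spata9 and Slc22a7, at 0.157, 0.166 and 0.206. By Pearson's r the nearest were Sh3gl1, P4ha2 and Tbc1d31 for Igfbp1 (r from 0.998 to 0.999), Dennd5b, Ulk2 and Hykk for Igfbp5 (r from 0.993 to 0.994), and Upk3b, Dmtf1 and Acrbp for Igfbp6 (r from 0.994 to 0.996). All of these values are across 6 libraries in 2 groups, so a difference between the groups alone gives a high r, and they are descriptions.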

How the data were processed

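Liver RNA from 6 samples, 3 Ctrl and 3 Fam210aHKO by their titles, was extracted with TRIzol and enriched on poly-T beads, per the labels' protocols. The authors deposited raw counts per Ensembl gene and FPKM values, without pooling replicates. FPKM as deposited equals counts per kilobase and per 1000000 of a library-specific size set by the authors. The submitters' processing notes name the build mm10 and, among other tools, STAR, featureCounts and DESeq2. The sources used here do not give the strand setting or the treatment of reads with several matches.

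Group was the only factor in edgeR 4.0.16 (R 4.3.3), with filterByExpr at a minimum count of 10, TMM factors and the two-sided quasi-likelihood test. Benjamini-Hochberg adjustment ran over 13706 genes, with calls at adjusted p under 0.05. Standard errors were derived from the log2 fold change and its F statistic. At the start the dispersions came from estimateDisp (1908 genes higher, 1832 lower); after this output had been seen the fit was changed to glmQLFit estimating them itself (1922 and 1852), to match earlier processing of these data, and the first is kept as an alternative, added after seeing the data. The calls on the 8 members are the same in both. Values per kilobase use the gene length in the table. The members and lists were chosen with earlier results of these data known, and the motifs and ratio pairs after values or windows had been seen. All members are named, with the called genes of each list and, for each called member, the 3 nearest genes by each of the 2 measures. Deviations from the group means correlated at 0.245, 0.182 and 0.155 for same-numbered libraries and at -0.141 to -0.0262 for other pairs. Deviations cancel out within a group, so positive values for same-numbered pairs by themselves push the other pairs down. The correlations were not tested and do not show that libraries were paired. The number was used as a block in an alternative. The library names also carry matching numbers in both groups, and the sources used here do not give what the number stands for.

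Alternatives were the scaling (median-of-ratios or library totals), the filter (none, or CPM above 1 in at least 3 libraries), the tool (limma-voom with limma 3.58.1, DESeq2 1.42.0, or limma on log2(FPKM + 1) and log2(FPKM + 0.1)), the replicate block and leaving out each library. On simulated data with 200 changed genes among 13501, the test called 62% of genes changed by 1 on the log2 scale and 100% of those changed by 2. Of its 168 calls, 6 were false. The changed genes were drawn above a set mean count that Igfbp6 does not reach, so these rates do not cover Igfbp6. As many were raised as lowered, and all genes had the same dispersion, unlike real data. Promoter windows come from RefSeq (GRCm38.p6), where all 8 members matched.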

Additional observations from a re-analysis of the deposited data

How the results depend on the processing

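Igfbp1 was called higher and Igfbp6 lower under every alternative that tested them. Library totals gave Igfbp2 0.26, Igfbp3 0.52, Igfbp5 -0.75, Igfbp7 0.86 and Igf1r 1.20 as log2 fold changes, with 4 members higher and 1 lower, and 5846 genes higher and 868 lower in all. They also gave 0 other receptors lower, 5 proteases higher and 1 lower, 3 domain relatives higher, 10 signalling genes higher and 0 lower, 0 transcription factors lower, and 1 growth hormone input gene higher and 1 lower. The replicate block gave Igfbp4 -0.62 and Igfbp7 0.40, both then called, with 2 members higher. It gave 3 proteases higher, 3 signalling genes higher and 4 lower and 3 transcription factors lower, and changed no other call on a member. DESeq2 gave Igfbp4 -0.66 (called), 2 signalling genes higher, and 1 transcription factor higher and 2 lower. Igfbp3 turned to -0.0086 with log2(FPKM + 1) and to -0.0097 with log2(FPKM + 0.1). Proteases higher numbered 1 with median-of-ratios scaling, no filter, the filter of CPM above 1, limma-voom, both FPKM fits and the added fit with dispersions from estimateDisp, where Ctsd was not called (adjusted p = 0.0647). Transcription factors higher numbered 1 with no filter and both FPKM fits, and signalling genes higher 2 with no filter. The filter of CPM above 1 left 1 member lower, as it drops Igfbp6.

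Without single libraries the log2 fold changes ran from -0.032 to 0.21 for Igfbp3 (below 0 without Ctrl replicate 3, Fam210aHKO replicate 1 or Fam210aHKO replicate 2), -0.85 to -0.50 for Igfbp4, -1.45 to -0.93 for Igfbp5 and 0.59 to 0.90 for Igf1r. Members higher then numbered 1 to 2 and lower 1 to 3, the count of 2 higher coming without Fam210aHKO replicate 2 and that of 1 lower without Ctrl replicate 3. Proteases higher numbered 1 to 1, growth hormone input genes lower 1 to 2, signalling genes higher 1 to 2 and lower 1 to 3, and transcription factors higher 1 to 1 and lower 0 to 3, 0 without Ctrl replicate 3 and 3 without Ctrl replicate 2. Other than for Igfbp6, where fewer genes were tested, the cause of these shifts was not tested. Among the members, Igfbp6 rests on 57 and 22 counts in all in Ctrl and Fam210aHKO and Igf1r on 98 and 252.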
